A study of Mus musculus with 3 samples.

Results

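The T-cell and myeloid genes examined here were Gata3, Bcl11b, Cd3g, Cd3d, Cd3e, Cebpa, Csf1r and Mpo, in a pro-B cell line that belongs to neither lineage. They were chosen by name and by a fixed window of mm9 around each. The 8 genes lie in 6 windows, because Cd3g, Cd3d and Cd3e share 1. The windows hold 305 of the 2285014 bins of 1 kb that had a read in any library. That each gene lies in its window was not checked against an mm9 annotation, and every absence of a call below depends on it. The T-cell windows were Gata3 (chromosome 2, 9770001 to 9820000), Bcl11b (chromosome 12, 109140001 to 109250000) and Cd3g-Cd3d-Cd3e (chromosome 9, 44770001 to 44825000). The myeloid windows were Cebpa (chromosome 7, 35895001 to 35915000), Csf1r (chromosome 18, 61255001 to 61300000) and Mpo (chromosome 11, 87600001 to 87625000).

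The reads came from chromatin immunoprecipitation and sequencing (ChIP-seq) of 3 histone H3 states, with 1 library per antibody and no replicate. All 3 libraries were from Abelson-transformed pro-B cells with the genotype RAG2-/-, of the strain written C57BL/7 in the labels. The antibodies were against symmetric dimethylation of arginine 2 (H3R2me2s), against that mark with trimethylation of lysine 4 on the same tail (H3R2me2sK4me3, the combined mark) and against lysine 4 trimethylation alone (H3K4me3). The first pair was raised in the submitters' laboratory and the last was commercial. The cells were grown in culture medium with serum, and no other treatment is named. RAG2 is needed to rearrange antigen receptor genes, so these cells cannot complete that step, and Abelson virus keeps them dividing. No input or control-antibody library was used here. Whether the line is 1 clone is not given in the sources used here. A weaker signal from all cells and a stronger one from a few cells cannot be told apart in such bulk material.

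The H3K4me3 library was the deepest with 13898471 reads, followed by the combined mark with 7128852 and H3R2me2s with 6923765. Background, the mean of bins over 5 kb from any enriched bin, was 2.98, 1.86 and 2.35 reads per bin in that order. A bin was called at 25 reads or more of H3K4me3, 16 of the combined mark and 15 of H3R2me2s, which stood at 8.39, 8.60 and 6.37 times background. Intervals below are exact 95% intervals for counting error only, since reads amplified by PCR are not independent molecules. No test between antibodies was possible with 1 library each. The positions of B-lineage genes in mm9 were not used here, so the cell type was not checked against its own markers.

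H3K4me3 marks the start of active genes and of many CpG-rich genes that are silent. H3R2me2s is an arginine mark on the same tail that is bound by WDR5, a subunit of the complexes that methylate lysine 4. Gata3 is a transcription factor needed for early T-cell development, and Bcl11b is a transcription factor that fixes T-cell identity. Cd3g, Cd3d and Cd3e encode the gamma, delta and epsilon chains of CD3, which carry the signal of the T-cell receptor. Cebpa is a transcription factor that drives granulocyte and monocyte formation, Csf1r is the receptor for macrophage colony-stimulating factor, and Mpo is the peroxidase of neutrophil granules. B-cell progenitors normally keep these genes low or silent.

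Promoters of the members differ in CG dinucleotides, the sequence feature most tied to H3K4me3, and 4 are shown because they span that range. RefSeq held a promoter for 7 of the 8 members, and none was matched for Csf1r. The bases below are the 250 before each start in GRCm38.p6, 5′ to 3′, with every CG in capitals. They show sequence only, because the reads are placed in mm9 and no position was carried from one build to the other.
Gata3, chr2:9878601-9878850, minus strand: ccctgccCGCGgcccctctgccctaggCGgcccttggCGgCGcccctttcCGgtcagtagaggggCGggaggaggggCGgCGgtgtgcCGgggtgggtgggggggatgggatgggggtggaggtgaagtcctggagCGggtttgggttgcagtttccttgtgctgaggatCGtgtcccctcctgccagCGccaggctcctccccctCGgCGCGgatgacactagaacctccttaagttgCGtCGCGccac
Cebpa, chr7:35119043-35119292, plus strand: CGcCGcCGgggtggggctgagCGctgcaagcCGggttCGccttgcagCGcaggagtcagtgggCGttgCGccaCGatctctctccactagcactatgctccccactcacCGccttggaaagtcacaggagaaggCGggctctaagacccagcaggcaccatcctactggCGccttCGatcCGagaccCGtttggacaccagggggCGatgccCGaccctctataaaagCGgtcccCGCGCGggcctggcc
Cd3d, chr9:44981536-44981785, plus strand: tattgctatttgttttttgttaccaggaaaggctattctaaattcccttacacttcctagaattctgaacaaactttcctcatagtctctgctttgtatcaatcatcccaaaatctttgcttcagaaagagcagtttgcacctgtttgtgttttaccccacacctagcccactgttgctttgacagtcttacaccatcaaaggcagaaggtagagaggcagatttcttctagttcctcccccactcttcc
Mpo, chr11:87793534-87793783, plus strand: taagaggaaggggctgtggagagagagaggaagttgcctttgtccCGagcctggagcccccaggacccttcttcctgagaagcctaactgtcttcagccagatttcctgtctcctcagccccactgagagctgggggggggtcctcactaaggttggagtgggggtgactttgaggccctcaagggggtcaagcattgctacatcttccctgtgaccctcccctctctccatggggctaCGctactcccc

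The Gata3 promoter held 19 CG in 250 bases, more than 80.3% of 32851 RefSeq promoters, and that of Cebpa held 22, more than 85.2%. The Cd3d promoter held 0 and that of Mpo held 2, beside a median of 6 over all promoters. Bcl11b had 9, Cd3e had 7 and Cd3g had 4. The motif TATAAA, searched on both strands, was in the Cebpa promoter and in none of the other 6, and 12.4% of all promoters held it. Of the CG-rich pair, Gata3 and Cebpa, only the Gata3 window held a called bin. The strongest called bin was in the window of the Cd3 genes, whose promoters held 0, 4 and 7 CG. That bin was not assigned to a Cd3 promoter, and the promoter of Ube4a, the neighbour of Cd3g, was not read for CG. Whether the calls went with the CG content of promoters was thus not tested. The Cebpa window also has a stretch of 1922 bp without a read in any library, described below.

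**Figure D1:**
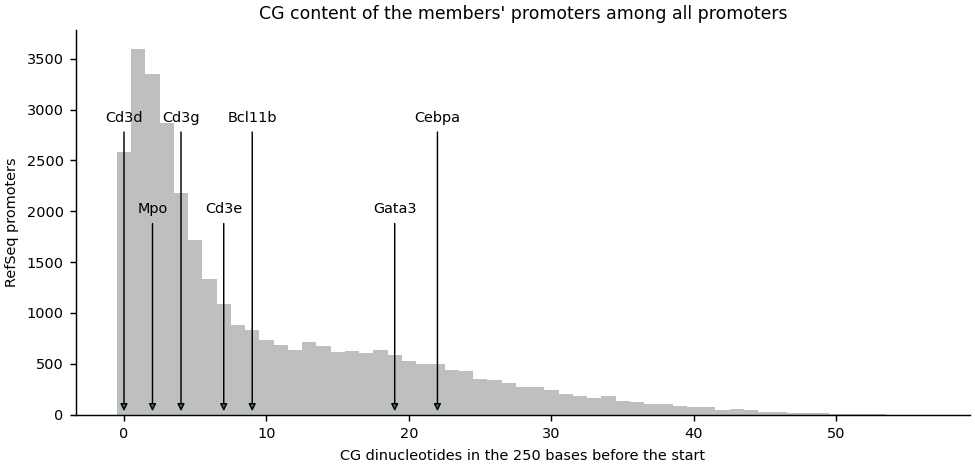
Number of RefSeq promoters (vertical axis) by the number of CG dinucleotides in the 250 bases before the start (horizontal axis), with arrows at 7 members. Cd3d sits at 0 and Mpo at 2, while Gata3 (19) and Cebpa (22) lie in the CG-rich tail.

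H3K4me3 was called in 2 of the 6 windows (Gata3 and Cd3g-Cd3d-Cd3e). H3R2me2s and the combined mark were called in the Cd3 window alone. The windows of Bcl11b, Cebpa, Csf1r and Mpo held no called bin of any mark. Among all tiles as wide as the windows, the share with an H3K4me3 call ran from 16.8% (20 kb) to 47.5% (110 kb). It ran from 12.4% to 40.3% for the combined mark and from 12.3% to 39.6% for H3R2me2s. The counts of windows were not tested against these shares and are not a result about either lineage. Over the 305 bins, 2 were called for H3R2me2s, or 0.656% (Clopper-Pearson 0.0795 to 2.35), where 1.23% of all bins were. For the combined mark 4 were called, or 1.31% (0.359 to 3.32), beside 1.45% of all bins. For H3K4me3 7 were called, or 2.30% (0.928 to 4.67), beside 2.45% of all bins. Each interval holds the share of all bins. A difference of the set from the genome was therefore not detected, which does not show that there is none. Neighbouring bins are not independent, so these intervals are narrower than they should be.

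The 3 T-cell windows together had 7 bins called for H3K4me3 of 215, and the 3 myeloid windows had 0 of 90. A count of 0 among 90 bins allows a share of up to 4.02% (Clopper-Pearson), which is above the 2.45% of all bins. A difference from the genome was therefore not detected in these 90 bins, which does not show that there is none. Summed over the myeloid windows, H3K4me3 was at 1.07 times background (0.954 to 1.21), the combined mark at 1.20 (1.04 to 1.38) and H3R2me2s at 1.29 (1.14 to 1.46). Over the T-cell windows they were 2.78 (2.65 to 2.91), 1.72 (1.60 to 1.86) and 1.21 (1.12 to 1.31) in that order. The T-cell sums rest on the Cd3 and Gata3 windows, as the single windows show. Windows of 1 cell line are not replicates of a lineage, and the lineages were not tested against each other.

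**Figure D2:**
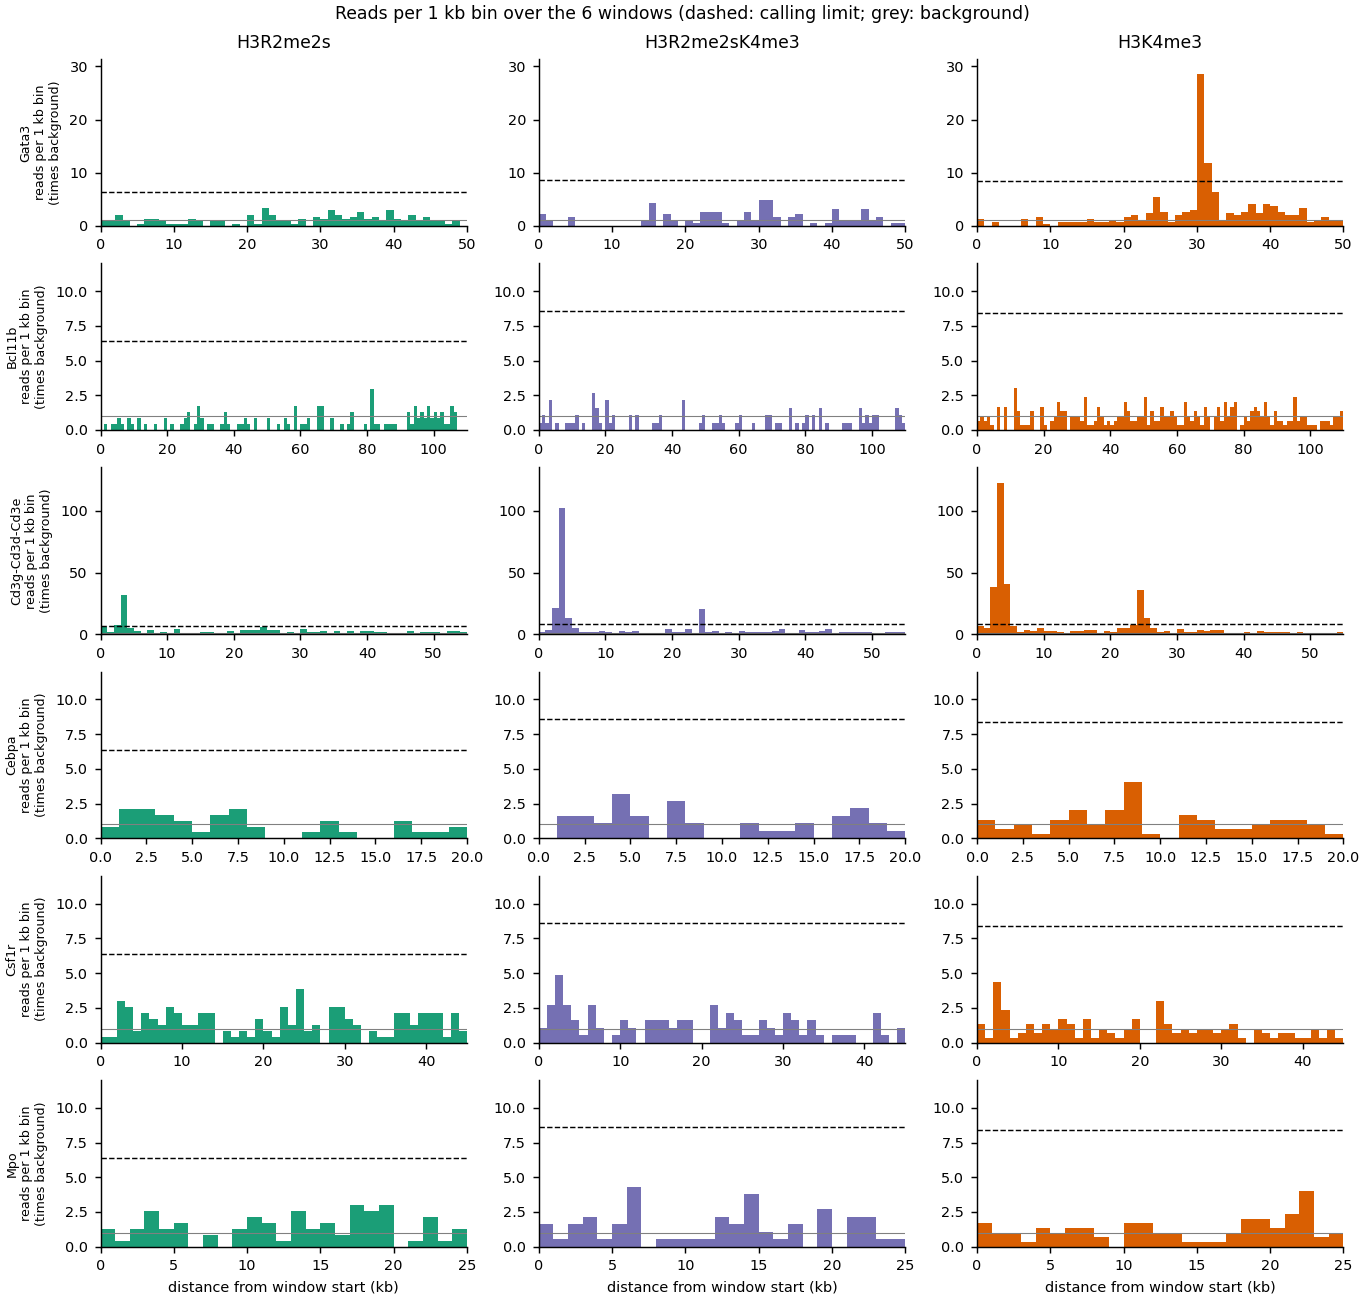
Reads per 1 kb bin as multiples of background (vertical axis, scaled per window) against distance from the start of the window in kb (horizontal axis), for 6 windows (rows) and 3 libraries (columns), with the calling limit dashed and background in grey. Bars cross the dashed line at 30 to 32 kb of the Gata3 window for H3K4me3 alone. In the Cd3 window they cross it between 2 and 5 kb in all 3 libraries, and between 24 and 26 kb for H3K4me3 and the combined mark.

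At Gata3, H3K4me3 stood far above background at a single place and H3R2me2s did not. The called region was chromosome 2, 9800001 to 9802000, and its 2 bins held 85 and 35 H3K4me3 reads. The first bin was 28.5 times background (22.8 to 35.3), higher than 58.6% of all bins called for H3K4me3. In the same 2 bins there were 3 and 7 H3R2me2s reads, and 9 and 9 reads of the combined mark, all below the limits of 15 and 16. The highest bins of the window held 8 H3R2me2s reads (3.45 to 15.8) and 9 reads of the combined mark (4.11 to 17.1), so levels at those limits lay within counting error. Of 18461 H3K4me3 regions, 11108 had more reads, so the window held a mid-ranking peak of that mark with no call of either arginine mark.

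Over the whole Gata3 region, H3K4me3 had 120 reads, or 20.1 times background (16.7 to 24.1). They were divided into 63 plus-strand and 57 minus-strand reads, and 112 of them were distinct in position and strand. H3R2me2s had 10 reads, 2.12 times background (1.02 to 3.90), and the combined mark had 18 reads, 4.83 times background (2.87 to 7.64). Both were above background by their intervals, so neither mark was shown to be absent. Local background within 50 kb was 1.00, 1.12 and 1.16 times the genome-wide one for H3R2me2s, the combined mark and H3K4me3. The same region was called for H3K4me3 at equal depth and at 8 times the mean, where its called width fell from 2 kb to 1 kb.

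Scaled to the total mapped reads of each library (CPM), H3R2me2s over H3K4me3 at the Gata3 region was 0.167 (0.0782 to 0.318). The median over 16799 H3K4me3 regions with 30 reads or more was 0.402, and 95% of them lay above 0.251. Scaled to background in place of all reads, the Gata3 ratio was 0.105, a change of scale that applies to every region alike. Among the 3555 such regions of 2 kb the median was 0.412, and 0.478% had a lower ratio than Gata3. The combined mark over H3K4me3 was 0.292 (0.168 to 0.482), beside a median of 0.598 in 2 kb regions, of which 2.79% were lower. Both intervals lay below the medians, so relative to H3K4me3 the Gata3 region carried less of each arginine mark than the middle region of the genome. H3R2me2s over the combined mark was 0.572 (0.236 to 1.31), an interval that holds the 2 kb median of 0.665.

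The shortfall lay in the first bin of the Gata3 region. Of the 9166 bins with 64 to 106 H3K4me3 reads, within 25% of the 85 at Gata3, the median was 15 H3R2me2s reads, and 0.295% had 3 or fewer. For the combined mark the median of those bins was 26 reads, and 1.43% had 9 or fewer. In that class 51.5% of bins were called for H3R2me2s and 88.7% for the combined mark. The neighbouring bin at 35 H3K4me3 reads was ordinary: its 7 H3R2me2s reads and 9 reads of the combined mark stood beside class medians of 8 and 9. Gata3 was not alone in this for the combined mark: the bin from 44795001 to 44796000 in the Cd3 window had 3 reads beside a median of 10, and 2.57% of its class had as few. These places were read for all 7 bins called for H3K4me3 and for both arginine libraries, and they describe single bins of 1 library each.

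**Figure D3:**
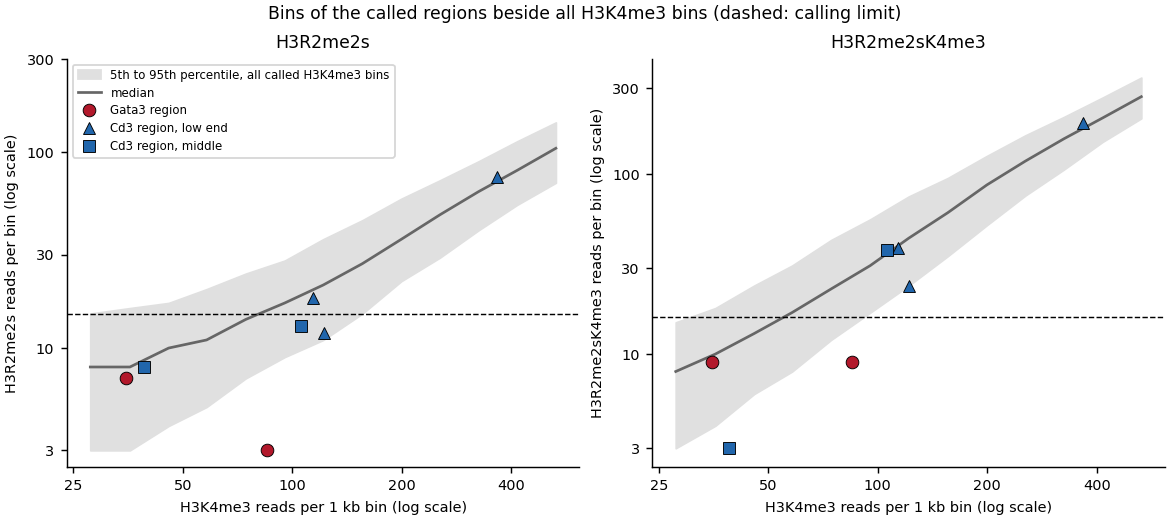
Reads of H3R2me2s (left) and of the combined mark (right) per 1 kb bin against H3K4me3 reads in the same bin, both on log scales, for the 7 bins of the 3 called regions. The grey band runs from the 5th to the 95th percentile of all called H3K4me3 bins, with the median as a line. The first Gata3 bin (85 H3K4me3 reads, with 3 and 9 reads of the other marks) lies under the band in both panels. The last bin of the middle Cd3 region (39 H3K4me3 reads) lies under the band of the combined mark too, with 3 reads.

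H3K4me3 around the Gata3 peak reached beyond the called region. In 10 kb segments from the low end of the window, the H3K4me3 level was 0.537, 0.705, 2.35, 6.51 and 1.91 times background. Leaving out all bins within 2 kb of the called ones, the window still had 1.52 times background (1.31 to 1.75), beside 0.864 in background bins within 200 kb on either side. H3R2me2s outside the called bins was 1.052 times background (0.864 to 1.27) and the combined mark 0.977 (0.775 to 1.22). In the 10 kb segment that holds the peak, from 9800001 to 9810000, H3R2me2s was at 1.87 (1.36 to 2.51) and the combined mark at 1.61 (1.09 to 2.30). Background bins lie more than 5 kb from any call, so the value of 1.52 includes bins nearer to the calls than they are. The last segment, from 9810001 to 9820000, lies more than 5 kb from the called bins and had H3K4me3 at 1.91 (1.45 to 2.48). More than 2 kb from the called bins, H3K4me3 was thus raised, and the intervals of the other marks hold 1. The segment with the peak had a low level of both other marks.

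The called region at Gata3 stood far from others. Counted from the window's edges, as for every window below, the next bin called for H3K4me3 was 2975 kb away on the low side and 148 kb away on the high side. Over all tiles of 50 kb in which at least 90% of bins had a read, 31.7% held a bin called for H3K4me3, 24.9% for H3R2me2s and 25.1% for the combined mark. The window's H3K4me3 total of 358 reads was above that of 75.4% of these tiles. Its totals of 131 H3R2me2s reads and 108 reads of the combined mark were above 50.6% and 53.6%. In RefSeq the nearest protein-coding genes are Celf2 and Taf3. Where the start of Gata3 lies within the window was not placed, so the peak was not assigned to its promoter.

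At Bcl11b, none of 110 bins came near a limit, and the arginine-mark libraries had few reads of any kind. The highest bin held 7 reads of H3R2me2s (2.81 to 14.4), 5 of the combined mark (1.62 to 11.7) and 9 of H3K4me3 (4.11 to 17.1). The upper bounds were below the limits of 15, 16 and 25 reads. Across the window there were 124, 94 and 301 reads in that order. H3K4me3 was at 0.919 times background (0.818 to 1.03), the combined mark at 0.459 (0.371 to 0.562) and H3R2me2s at 0.479 (0.398 to 0.571). H3K4me3 was thus near background, while the others were below it by their intervals.

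The low counts at Bcl11b were not confined to 1 part of the window. In 10 kb segments the H3R2me2s level ran from 0.255 to 0.892 times background and H3K4me3 from 0.638 to 1.17. The H3R2me2s segments from 109230001 to the high end were at 0.892 (0.552 to 1.36) and 0.722 (0.421 to 1.16), intervals that hold 1. Of 15841 tiles of 110 kb, 0.638% had fewer H3R2me2s reads and 0.347% had fewer reads of the combined mark, but 38.4% had fewer of H3K4me3. The background bins within 200 kb on either side were low too, at 0.696, 0.705 and 0.854 times the genome-wide level for H3R2me2s, the combined mark and H3K4me3. Relative to these, the window was at 0.688, 0.651 and 1.07. The low level of both arginine libraries in the surroundings thus went with the low values at Bcl11b, and its part in them was not tested. Of these tiles, 47.5% held a bin called for H3K4me3, 40.3% for the combined mark and 39.6% for H3R2me2s, and the next H3K4me3 call lay 1889 kb away on the low side and 159 kb on the high side.

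**Figure D4:**
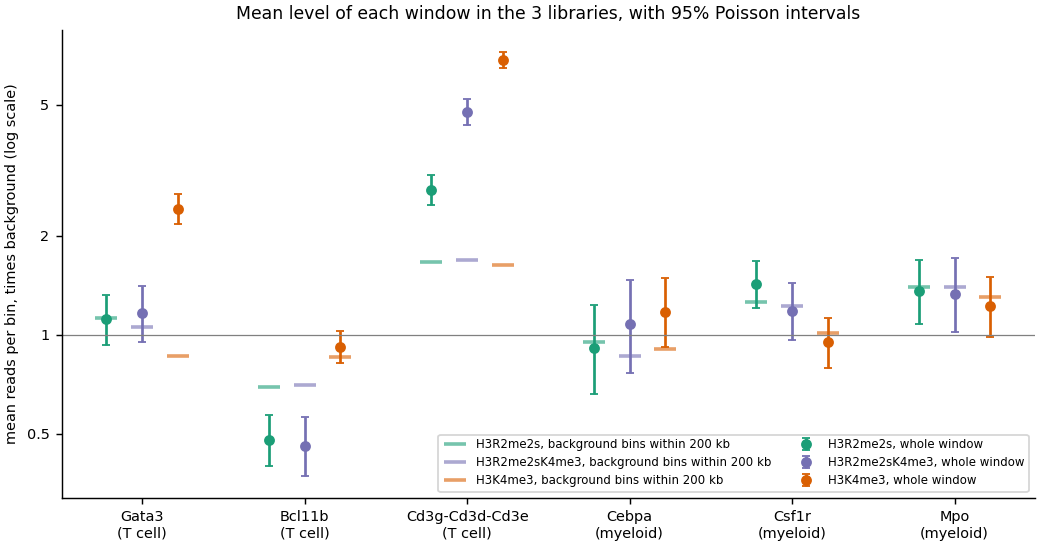
Mean reads per bin of each window as multiples of background (log scale) in the 3 libraries, as points with 95% Poisson intervals, with short lines for the background bins within 200 kb on either side. Only the Cd3 window is above 2 in all libraries (2.76, 4.76 and 6.83), Gata3 is above 2 for H3K4me3 alone, and Bcl11b lies below 0.5 for both arginine marks.

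The Cd3g-Cd3d-Cd3e window held 2 separate regions, a strong one at its low end with all 3 marks and a weaker one in the middle. The low-end region was chromosome 9, 44772001 to 44775000, and the middle one 44794001 to 44796000. No bin beyond 26 kb of the 55 kb was called. In RefSeq the order of genes is Ube4a, Cd3g, Cd3d, Cd3e and Mpzl2, with Ube4a, which encodes a ubiquitin ligase, next to Cd3g on the low side. In GRCm38.p6 the promoters of Cd3g (44980432 to 44980681, minus strand) and Cd3d (44981536 to 44981785, plus strand) lie side by side. That of Cd3e (minus strand) lies higher, at 45009612 to 45009861. A minus-strand gene runs from its start toward lower positions. Gene starts were not placed in mm9, and the low-end region was not assigned to Ube4a or Cd3g. A strong site at a Cd3 gene was thus not shown.

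In the low-end region, H3K4me3 had 114, 366 and 122 reads in its 3 bins. H3R2me2s had 18, 75 and 12, and the combined mark had 39, 191 and 24. The central bin was at 123 times background in the H3K4me3 library (111 to 136), 103 with the combined mark (88.6 to 118) and 31.9 with H3R2me2s (25.05 to 39.9). With bins offset by 500 bp the highest bin was lower, at 92.7, 70.4 and 23.8 in that order, outside those intervals. Of the region's 602 H3K4me3 reads, 518 were distinct in position and strand. Counting 1 read per position and strand, H3K4me3 was at 101.6, also outside its interval. The first bin and the central one were called in all 3 libraries, and the last in all but H3R2me2s. The central bin was higher than 95.9%, 93.5% and 91.4% of called bins of those libraries, so this was a strong site for every mark. Of 18461 H3K4me3 regions, 3412 had more reads.

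Both ratios to H3K4me3 at the low-end region had intervals that hold the median. H3R2me2s over H3K4me3 was 0.350 in CPM (0.282 to 0.431), and the combined mark over H3K4me3 was 0.823 (0.708 to 0.954). Medians of 3384 regions of 3 kb were 0.396 and 0.769, both inside these intervals. H3R2me2s over the combined mark was 0.426 (0.336 to 0.536), beside a 3 kb median of 0.505, and 21.3% of those regions were lower. In the central bin, 75 H3R2me2s reads and 191 reads of the combined mark stood beside medians of 67 and 166 in bins of like H3K4me3 counts. The last bin, with 122 H3K4me3 reads, was lower in its class: 12 and 24 reads stood beside medians of 20 and 42, and 10.4% and 8.79% of bins had as few. Counted in 100 bp, every library had its highest counts at 1550 and 1950 bp from the start of the region. At these places the combined mark had 42 and 39 reads, H3R2me2s 23 and 16, and H3K4me3 67 and 83. Whether the place of the highest count differs between libraries was not tested.

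The middle region lay 24 to 26 kb from the start of the window. H3K4me3 had 106 and 39 reads in its 2 bins, the combined mark 38 and 3, and H3R2me2s 13 and 8. H3K4me3 and the combined mark were called, the latter in the first bin only, and H3R2me2s was below its limit of 15 in both. Over the region the levels were 24.3 times background with H3K4me3 (20.5 to 28.6), 11.01 with the combined mark (7.90 to 14.9) and 4.46 with H3R2me2s (2.76 to 6.82). All 3 libraries were highest in the same 100 bp, 550 bp from the start of the region, with 38, 20 and 4 reads.

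By H3K4me3 the middle Cd3 region and the Gata3 region were alike, with 145 and 120 reads. The combined mark had 41 reads at the first and 18 at the second, and H3R2me2s had 21 and 10. The middle Cd3 region had a CPM ratio of the combined mark to H3K4me3 of 0.551 (0.380 to 0.785), near the 2 kb median of 0.598. Its ratio of H3R2me2s to H3K4me3 was 0.291 (0.175 to 0.461), an interval that holds the median of 0.412. Whether the ratios of the 2 regions differ was not tested.

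**Figure D5:**
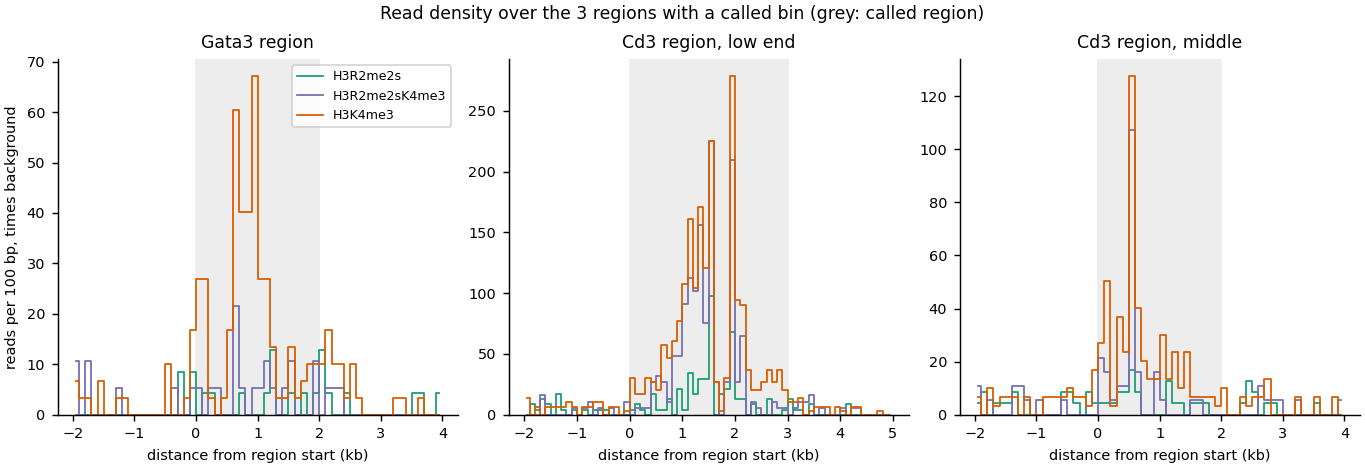
Reads per 100 bp as multiples of background (vertical axis, a scale per panel) against distance from the start of the called region in kb, for the 3 libraries, with the region in grey. H3K4me3 reaches 67.1 times background at Gata3 with at most 4 reads of another mark in any 100 bp, while the combined mark peaks beside H3K4me3 in both Cd3 regions. From 1150 to 1450 bp of the middle Cd3 region the combined mark has 0 reads and H3K4me3 3 to 7 per 100 bp.

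Local background around the Cd3 genes was high in every library, at 1.66, 1.68 and 1.63 times the genome-wide level for H3R2me2s, the combined mark and H3K4me3. In its bins more than 2 kb from any call, the window had 1.81 (1.55 to 2.10), 1.94 (1.65 to 2.28) and 2.06 (1.82 to 2.33) in that order. These were 1.09, 1.15 and 1.27 times the local level. The interval of H3K4me3 lay above the local level, while the intervals of the other marks reach it. The local bins, however, lie more than 5 kb from any call, so only the window values include bins nearer to the called regions. Whether H3K4me3 in the remainder of the window exceeded the surroundings was thus not shown. Of 30618 tiles of 55 kb, 34.2% held a call for H3K4me3, 27.4% for the combined mark and 27.2% for H3R2me2s.

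At Cebpa, no bin of 20 was called for any mark. The highest bin held 5 reads of H3R2me2s (1.62 to 11.7), 6 of the combined mark (2.20 to 13.1) and 12 of H3K4me3 (6.20 to 20.96), with every upper bound below the limit. The window had 43, 40 and 70 reads, which was 0.913 (0.661 to 1.23), 1.07 (0.768 to 1.46) and 1.18 (0.916 to 1.49) times background. All 3 intervals hold 1, so no mark was distinguishable from background over the window. Calls were found in 12.3%, 12.4% and 16.8% of 95621 tiles of 20 kb for H3R2me2s, the combined mark and H3K4me3.

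Part of the Cebpa window gave almost no reads. From 35904105 to 35906026, a stretch of 1922 bp, no read of any library was counted, the longest such gap in the 6 windows. The bins from 35904001 to 35906000 held 1 read in all, where background alone gives 14.4. The bin just before the gap, 35903001 to 35904000, was the highest of the window for H3K4me3. Whether reads could be mapped within the gap was not tested, so an absence of marks there was not shown. The next bin called for H3K4me3 was 52 kb away on the low side and 104 kb on the high side.

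At Csf1r, all 45 bins were below the limits. The highest bin held 9 reads of H3R2me2s (4.11 to 17.1), 9 of the combined mark (4.11 to 17.1) and 13 of H3K4me3 (6.92 to 22.2). For H3R2me2s and the combined mark the upper bounds exceed the limits of 15 and 16, so a level at the limit lay within the counting error of these bins. The combined mark and H3K4me3 were highest in the same bin, 61257001 to 61258000, near the low end of the window, where the neighbouring gene in RefSeq is Pdgfrb. Calls were found in 23.7%, 23.8% and 30.2% of 37804 tiles of 45 kb.

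The Csf1r window had 151 reads of H3R2me2s, 1.43 times background (1.21 to 1.67). The combined mark had 99 reads, at 1.18 (0.961 to 1.44), and H3K4me3 had 127, at 0.948 (0.790 to 1.13). H3R2me2s was above the genome-wide background over the window as a whole, without any bin that stood out. Background bins within 200 kb were raised in part too, at 1.26, 1.22 and 1.01, and relative to them the window was at 1.14, 0.968 and 0.938. The next bins called for H3K4me3 lay 245 kb away on the low side and 35 kb on the high side.

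At Mpo, all 25 bins were below the limits as well. The highest bin held 7 reads of H3R2me2s (2.81 to 14.4), 8 of the combined mark (3.45 to 15.8) and 12 of H3K4me3 (6.20 to 20.96). Each upper bound was below the limit, so a called level was outside the counting error of these bins. That depended on where the bins began. With bins offset by 500 bp, the highest bin of the combined mark was at 4.83 times background (2.21 to 9.18) and that of H3R2me2s at 3.40 (1.47 to 6.70). Those upper bounds exceed the limits of 8.60 and 6.37 times background. The window had 80, 62 and 91 reads, or 1.36 (1.08 to 1.69), 1.33 (1.02 to 1.71) and 1.22 (0.984 to 1.50) times background. Its surroundings stood at 1.40, 1.39 and 1.30, so the window lay at 0.971, 0.957 and 0.938 of them. In RefSeq Mpo lies between Tspoap1 and Lpo, and the next H3K4me3 calls were 26 kb away on the low side and 41 kb on the high side. Of 72060 tiles of 25 kb, 20.3% held a call for H3K4me3, 15.3% for the combined mark and 15.2% for H3R2me2s.

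Ordered by highest H3K4me3 bin, the windows were Cd3 (366 reads), Gata3 (85), Csf1r (13), Cebpa and Mpo (12 each) and Bcl11b (9). The last 4 differ by less than their counting intervals. For H3R2me2s the order was Cd3 (75), Csf1r (9), Gata3 (8), Bcl11b and Mpo (7 each) and Cebpa (5), and for the combined mark Cd3 (191), Gata3 and Csf1r (9 each), Mpo (8), Cebpa (6) and Bcl11b (5). Apart from the Cd3 window, neighbours in those orders overlap in their intervals. Gata3 ranked with the windows without a call for both arginine marks, and apart from them for H3K4me3.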

How the data were processed

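ChIP-seq reads of 3 libraries of mouse pro-B cells were used, 1 library per antibody. Per the deposited files, each line is 1 mapped read of 39 bases, so values per bin are raw read counts with no scaling by the authors. The build was mm9 per the submitters' processing notes. The aligner and any removal of repeated reads are not given in the sources used here.

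Reads were shifted downstream by 75 bp on their own strand before counting in bins of 1 kb. A bin's limit was 4 times the mean or the count with a Poisson tail under 1e-06, whichever was larger. Called bins at most 1 kb apart were merged. Ratios have exact binomial intervals and counts exact Poisson intervals. Described were all 6 windows, every called run and the highest bin per library. The windows and lists were chosen with earlier results of these data known. Python 3.11.15, numpy 2.4.6, scipy 1.17.1 and pandas 2.3.3 were used, and the calling was checked on simulated data. Promoters came from RefSeq (GRCm38.p6), and no coordinate was carried between builds. Other marker genes were not counted, because no mm9 annotation was used here. Alternatives changed the shift, repeats, bins, limits, depth and scaling.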

Additional observations from a re-analysis of the deposited data

How the results depend on the processing

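The number of windows with a call stayed at 2 for H3K4me3 and at 1 for each arginine mark under the 11 planned settings, and the windows of Bcl11b, Cebpa, Csf1r and Mpo had 0 kb called in each of them. With the low-end Cd3 region left out, a setting chosen after seeing the data, H3R2me2s was called in 0 windows and 0 kb, the combined mark in 1 kb and H3K4me3 in 4 kb, from 2, 4 and 7 kb. H3R2me2s fell to 1 kb with 500 bp bins and at 8 times the mean, and H3K4me3 rose to 15 kb at the lower limit of 4 times background. At Gata3 that setting and local background gave 4 kb for H3K4me3 and 8 times the mean gave 1 kb. Of all 531 recomputed values, 60 moved beyond their interval or 1.5 times. A further 3, all at Mpo, had intervals above 1 and fell below it: the combined mark was 0.795 scaled to the genome-wide mean and 0.957 scaled to local background, and H3R2me2s was 0.971 scaled to local background. Of the 18 window levels, with or without an interval that holds 1, 7 changed side of 1 scaled to the mean and 6 scaled to local background. No paired analysis was possible because the labels give 1 library per antibody. The limits of 6.37 to 8.60 times background depend on the chosen multiple of the mean, as the rise to 15 kb shows.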
